A study of Homo sapiens with 4 samples.

Results

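The H2A and H2B genes described here are the 9 protein-coding genes H2AC4, H2AC6, H2AC8, H2BC3, H2BC4, H2BC7, H2BC8, H2BC9 and H2BC10, which lie among other histone genes on the short arm of chromosome 6. They were found among the 78724 gene rows of the deposited table by their place on GRCh38, with 3 rows for H2A and 6 for H2B. Ribosome footprints, the short RNA pieces that a ribosome shields from nuclease, were counted in A375 cells, an established human melanoma line that the study's title places among ASS1-deficient cancers. Arginine-free cells spent 48 h in a medium rebuilt from RPMI 1640 with glucose, pyruvate and every amino acid but L-arginine, and control cells spent the same time in control medium. Each group had 2 libraries, and no label says whether these were separate cultures, so the spread between them may be technical.

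H2A and H2B pair as dimers, and a pair of such dimers joins a tetramer of H3 and H4 to form the protein core of the nucleosome. Most of their genes are replication-dependent: their mRNAs are made in quantity while DNA is copied, end in a stem-loop in place of a poly(A) tail, and are lost when DNA synthesis stops. Many H2A and H2B genes sit head to head and share the DNA between their starts, where an octamer letter pattern bound by OCT1 and CCAAT boxes are well known from H2B genes. Some of these genes can also give longer polyadenylated transcripts.

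The stretches of DNA before the starts are shown first because the octamer is shared by every gene of the group. All 9 genes were found in the RefSeq promoter table (GRCh38.p14), and the 250 bases before each start were searched. In the sequences, written 5′ to 3′ on the strand of the named gene, capitals mark ATTTGCAT and CCAAT on either strand, so ATGCAAAT and ATTGG are their reverse forms. H2AC4 (chr6:26033619-26033868, minus strand) and H2BC3 (chr6:26043714-26043963, minus strand) had the largest changes below, H2AC6 (chr6:26123922-26124171, plus strand) the smallest, and H2AC8 (chr6:26216671-26216920, plus strand) the most reads. H2BC9 (chr6:26251364-26251613, plus strand) is an H2B gene with its octamer close to the start.
H2AC4: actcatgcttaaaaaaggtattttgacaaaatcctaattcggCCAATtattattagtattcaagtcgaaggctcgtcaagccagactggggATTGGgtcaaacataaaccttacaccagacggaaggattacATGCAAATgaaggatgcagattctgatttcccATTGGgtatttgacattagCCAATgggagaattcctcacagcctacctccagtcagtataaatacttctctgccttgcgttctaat
H2BC3: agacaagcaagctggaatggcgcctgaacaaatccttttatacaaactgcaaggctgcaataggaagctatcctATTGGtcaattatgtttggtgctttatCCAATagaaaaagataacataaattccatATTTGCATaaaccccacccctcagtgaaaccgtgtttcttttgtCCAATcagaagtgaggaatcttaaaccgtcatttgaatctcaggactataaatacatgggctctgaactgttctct
H2AC6: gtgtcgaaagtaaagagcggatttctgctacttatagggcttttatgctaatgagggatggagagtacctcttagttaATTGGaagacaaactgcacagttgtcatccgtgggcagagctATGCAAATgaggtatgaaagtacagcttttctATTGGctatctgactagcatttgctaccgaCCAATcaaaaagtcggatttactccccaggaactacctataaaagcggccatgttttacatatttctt
H2AC8: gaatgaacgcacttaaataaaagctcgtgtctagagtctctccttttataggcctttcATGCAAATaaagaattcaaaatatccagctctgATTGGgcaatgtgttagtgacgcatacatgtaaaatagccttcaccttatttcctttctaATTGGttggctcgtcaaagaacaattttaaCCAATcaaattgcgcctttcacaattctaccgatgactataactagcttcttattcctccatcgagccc
H2BC9: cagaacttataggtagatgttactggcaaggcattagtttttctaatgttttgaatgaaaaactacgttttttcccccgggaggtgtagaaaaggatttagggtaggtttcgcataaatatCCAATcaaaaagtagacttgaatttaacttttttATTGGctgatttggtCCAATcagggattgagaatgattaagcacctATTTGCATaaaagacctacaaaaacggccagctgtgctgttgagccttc

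ATTTGCAT, on either strand, stood before 9 of 9 of these genes, against 1.63% of the 35116 promoters in the table. CCAAT, on either strand, stood before 9 of 9, against 32.01% of all promoters. TATAAA on the gene's own strand stood before H2AC4, H2AC6, H2BC3 and H2BC8, which is 4 of 9, against 6.8% of all promoters. The octamer and CCAAT letters did not overlap each other in any of the 5 sequences printed. The 9 windows are not independent, because head-to-head genes share them. The starts of H2BC8 and H2AC8 have 232 bases between them, and 1 octamer (chr6:26216729-26216736) lies 48 to 41 bases before H2BC8 and 192 to 185 bases before H2AC8. H2BC4 and H2AC6 have 245 bases between them and likewise share 1 octamer (chr6:26124042-26124049). Among the other histone genes of this region, the octamer stood before 0 of 5 H1 genes, 0 of 5 H4 genes found in the table and 1 of 7 H3 genes, H3C4, whose window shares its octamer (chr6:26199405-26199412) with that of H2BC7. The octamer also stood before 2 of the 3 other H2A and H2B genes of the region, H2AC7 and H2BC6. The windows of H3C4 and H2AC7 are the same, with this octamer 119 to 112 bases before a shared annotated start. Their matches are thus counted under both H3 and H2A. CCAAT stood before all 5 H1 and all 7 H3 genes, before 1 of 5 H4 genes and before all 3 of the other H2A and H2B genes. TATAAA stood before 3 of 5 H1, 3 of 7 H3, 2 of 5 H4 and 2 of 3 other H2A and H2B genes. These matches describe letters and were not tested as sites.

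**Figure D1:**
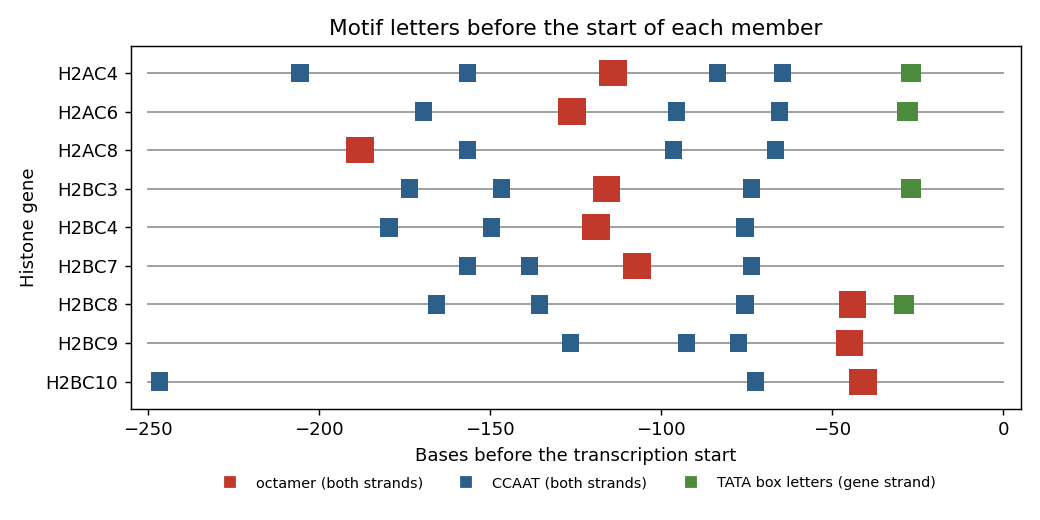
Positions of motif letters in the 250 bases before the start of each gene; the x axis is the distance from the start in bases, red blocks are the octamer, blue blocks CCAAT and green blocks TATAAA. An octamer is present before all 9 genes, from 192 bases (H2AC8) to 45 bases (H2BC10) before the start at its first base.

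Total counts were 234766 and 192006 in the arginine-free libraries and 105004 and 217989 in the control libraries. The submitters' notes name GRCh37 and hg19, while the row coordinates are those of GRCh38. A short histone row may thus hold a part of its gene's reads or reads from just beside it. Elsewhere a row may hold none of its gene's reads, or those of another gene. A check against markers was limited by this. Of 7 melanocytic marker rows, 4 were listed at 0 (MITF, PMEL, TYR and SOX10), while TYRP1 and MLANA together had 1 and 2 reads in arginine-free cells and 22 and 35 in control cells. Over the whole melanocytic list there were 1 and 2 reads in arginine-free cells, against 23 and 36 in control cells, and the part of this in the histone results was not tested. All fibroblast and epithelial marker rows that were found were listed at 0, as were rows of genes that dividing cells use, such as PCNA and NPM1.

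Footprints on H2A and H2B were lower in arginine-free cells on every row that could be tested. Of the 9 rows, 8 had at least 20 reads and passed the filter on low counts, and all 8 were lower (edgeR quasi-likelihood test, adjusted p under the threshold of 0.05), against 16.9% of all 2526 tested rows that were called lower. None was higher, against 16.0% of all tested rows. In each of the 8, both arginine-free libraries lay below both control libraries, against 34.2% of all tested rows. The log2 fold changes ran between -4.62 and -1.62 with a median of -3.13, while the median of all tested rows was -0.03. Fewer cells making histones and fewer footprints per cell cannot be told apart in bulk libraries, and mRNA level and translation cannot either, since no matched RNA-seq was used here. Histone genes of a type have near-identical coding sequences, so how reads were split among copies makes the value of any single gene uncertain. H2AC4, H2BC3, H2BC7 and H2BC10 passed the filter on low counts only through their control libraries. The 9 genes were also chosen with earlier results of these data known. Setting them beside the shares of all tested rows is thus a description and not a test of the group. Without that filter all 8 rows were called lower too, beside 432 of 9443 rows. H2BC4 held no read and was not tested.

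**Figure D2:**
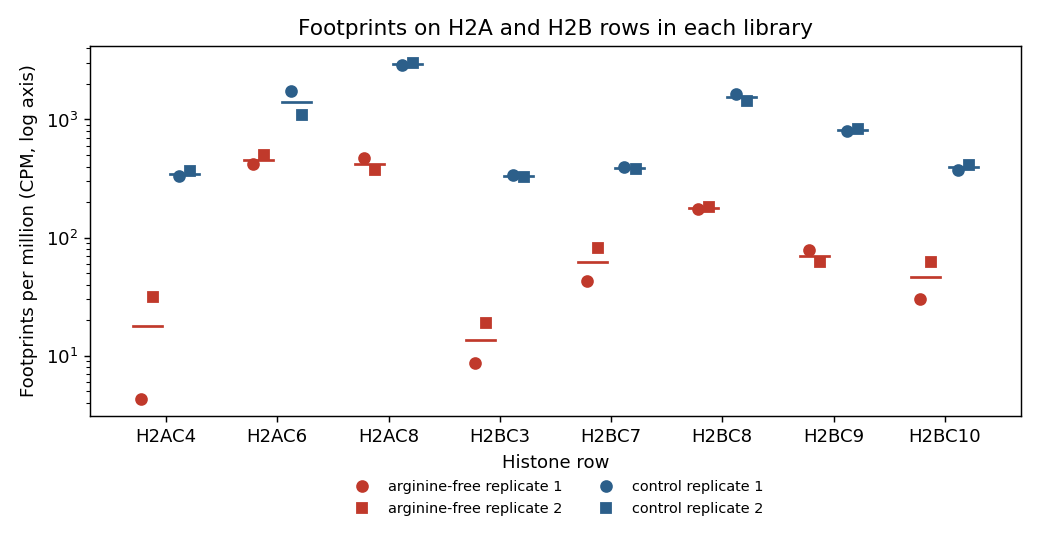
Footprints scaled to library size (CPM, log axis) on the 8 rows with reads, with arginine-free libraries in red and control libraries in blue; circles are replicate 1, squares replicate 2 and bars the mean of each group. On every row both red points lie below both blue points, and the gap is narrowest for H2AC6.

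The 3 H2A rows had log2 fold changes between -4.42 and -1.62. H2AC8 (ENSG00000277075, chromosome 6, 26216921 to 26218515, plus strand) encodes a canonical H2A and had the most reads of the group. Its row held 110 and 59 reads in arginine-free cells, against 307 and 589 in control cells. Scaled to library size as CPM (counts per fixed total of counts on tested rows), that was 476 and 371 CPM in arginine-free cells and 2893 and 3021 CPM in control cells. The control libraries agree closely and both lie far above the arginine-free ones. Means were 423 ± 74.8 CPM in arginine-free cells and 2957 ± 90.1 CPM in control cells (SD, n = 2 libraries each). H2AC8 was 6.93-fold lower by the fitted change (log2 fold change -2.79, SE 0.24, edgeR adjusted p = 1.19e-06).

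H2AC6 (ENSG00000180573, chromosome 6, 26124172 to 26139084, plus strand) had the smallest change. The annotation gives this row a second, distant exon from a longer transcript beside the short histone exon. It held 97 and 79 reads in arginine-free cells, against 184 and 213 in control cells. Levels were 420 and 496 CPM in arginine-free cells and 1734 and 1092 CPM in control cells. Control replicate 1 stood well above control replicate 2, yet the groups did not overlap. Means were 458 ± 53.8 CPM in arginine-free cells and 1413 ± 454 CPM in control cells. By the fitted change (log2 fold change -1.62, SE 0.25, edgeR adjusted p = 0.000295) it was 3.06-fold lower.

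H2AC4 (ENSG00000278463, chromosome 6, 26033092 to 26033618, minus strand) is a single-exon H2A gene. It held 1 and 5 reads in arginine-free cells, against 35 and 71 in control cells. These reads correspond to 4.33 and 31.4 CPM in arginine-free cells and 330 and 364 CPM in control cells. Nearly all of its footprints were thus in control cells, and the arginine-free level rests on 6 reads. The fitted log2 fold change was -4.42 (SE 0.50, edgeR adjusted p = 1.49e-05). Leaving out arginine-free replicate 1 gave -3.40, and leaving out arginine-free replicate 2 gave -6.07, past the threshold both times. By total counts the row was 22.9-fold lower, with an exact 95% interval between 10.2 and 63.8 that covers counting error alone.

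Among the H2B genes, H2BC8 carried the most footprints. H2BC8 (ENSG00000273802, chromosome 6, 26216200 to 26216688, minus strand) is the head-to-head partner of H2AC8. It held 40 and 29 reads in arginine-free cells, against 175 and 279 in control cells. That was 173 and 182 CPM in arginine-free cells and 1649 and 1431 CPM in control cells. Both pairs of libraries lie close together and far from the other pair. Mean levels were 178 ± 6.31 CPM in arginine-free cells and 1540 ± 154 CPM in control cells. H2BC8 was 8.63-fold lower (log2 fold change -3.11, SE 0.24, edgeR adjusted p = 5.19e-07), beside 6.93-fold for its partner H2AC8, and the difference between these partners was not tested.

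H2BC9 (ENSG00000275713, chromosome 6, 26251614 to 26252075, plus strand) followed in level. Its row held 18 and 10 reads in arginine-free cells, against 85 and 163 in control cells. In CPM these were 78.0 and 62.8 in arginine-free cells and 801 and 836 in control cells. The groups are far apart beside the gap within either. The log2 fold change was -3.51 (SE 0.28, edgeR adjusted p = 5.96e-07), or 11.4-fold lower.

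H2BC3 (ENSG00000276410, chromosome 6, 26042771 to 26043713, minus strand) had the largest change of the group. It held 2 and 3 reads in arginine-free cells, against 36 and 64 in control cells. The levels were 8.66 and 18.8 CPM in arginine-free cells and 339 and 328 CPM in control cells. The control level is steady, and the arginine-free level rests on 5 reads. The fitted log2 fold change was -4.62 (SE 0.45, edgeR adjusted p = 3.96e-06). By total counts H2BC3 was 25.9-fold lower, with an exact 95% counting interval between 10.7 and 81.5.

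After H2AC6, H2BC7 had the smallest change of the 8 tested rows, while H2BC10 lay near their median. H2BC7 (ENSG00000277224, chromosome 6, 26199516 to 26199988, plus strand) held 10 and 13 reads in arginine-free cells, against 42 and 74 in control cells, and was 6.39-fold lower (log2 fold change -2.68, SE 0.35, edgeR adjusted p = 6.65e-05). H2BC10 (ENSG00000278588, chromosome 6, 26272931 to 26273412, plus strand) held 7 and 10 reads in arginine-free cells, against 40 and 81 in control cells, and was 8.87-fold lower (log2 fold change -3.15, SE 0.37, edgeR adjusted p = 2.42e-05). In CPM, H2BC7 had 43.3 and 81.7 in arginine-free cells, against 396 and 380 in control cells. H2BC10 had 30.3 and 62.8 CPM in arginine-free cells, against 377 and 415 CPM in control cells. Neither row overlaps between groups.

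H2BC4 (ENSG00000180596, chromosome 6, 26114873 to 26123926, minus strand), the head-to-head partner of H2AC6, was listed at 0 in all 4 libraries. A count of 0 allows up to 3 counts, or 12.99 and 18.8 CPM in the arginine-free libraries and 28.3 and 15.4 CPM in the control libraries, on the same scale as the levels above. The 460 bases of its histone exon (26123467 to 26123926) lie wholly inside an exon of ENSG00000291336, a row on the opposite strand, and the header shows counting without strand and with no option for reads that touch several rows. A read there would be given to neither row, so the 0 does not show that H2BC4 had no footprints. ENSG00000291336 itself held 34 and 25 reads in arginine-free cells, against 129 and 255 in control cells (log2 fold change -3.05, SE 0.24, edgeR adjusted p = 5.78e-07). Its exon also spans the DNA between H2BC4 and H2AC6, and whose reads these are cannot be told from the table. No other of the 9 rows shares a base with another row on either strand.

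Per kilobase of row length, the level in control cells was highest on H2BC8, at 3373 and 2926 CPM per kb. H2AC8 (1814 and 1894) and H2BC9 (1734 and 1809) came next in control cells, with library values that lie close but do not overlap. H2AC6 (1119 and 705), H2BC10 (782 and 862), H2BC7 (837 and 802) and H2AC4 (626 and 691) followed, where H2AC6 overlaps H2BC10 and H2BC7, and these 2 overlap each other. H2BC3 was lowest, at 360 and 348 CPM per kb. In arginine-free cells H2BC8 (354 and 373) was again highest, with H2AC6 (271 and 320) and H2AC8 (299 and 232) overlapping behind it, and H2AC4 (8.22 and 59.6) and H2BC3 (9.19 and 19.98) lowest. These are levels on annotated row length, which is 1595 bases for H2AC8 and 1550 for H2AC6 because of longer annotated transcripts. For the other tested rows it is 462 to 943 bases. With the builds mixed and reads split among near-identical copies, this order describes rows and need not rank the genes.

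Summed over the group, the 9 rows held 285 and 208 reads in arginine-free cells, against 904 and 1534 in control cells. The H2A sum was 901 and 898 CPM in arginine-free cells and 4957 and 4477 CPM in control cells. Its mean was 5.24-fold lower, a log2 ratio of -2.39, and single pairs of libraries gave between 4.97-fold and 5.52-fold. The H2B sum was 333 and 408 CPM in arginine-free cells and 3562 and 3390 CPM in control cells. Its mean was 9.37-fold lower, a log2 ratio of -3.23, and single pairs gave between 8.30-fold and 10.7-fold. H2B reads per H2A read were 0.370 and 0.455 in arginine-free libraries, against 0.719 and 0.757 in control libraries. No p-value is given for sums over chosen rows. Without H2AC8, the log2 ratio of summed H2AC4 and H2AC6 was -1.89. By row, H2AC8 (-2.79) and H2AC4 (-4.42) lay within the span of the tested H2B rows, -4.62 to -2.68. Of the 3 H2A rows only H2AC6 (-1.62) lay outside it. H2BC4, whose 0 does not show a lack of footprints, adds nothing to the H2B sum. The difference between the H2A and H2B sums was not tested.

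Shares of the group's reads are given as a description, with no test. H2AC6, singled out after its values were seen, took 34% (95% exact interval 28.6 to 39.9) and 38% (31.4 to 45) of the group's reads in the arginine-free libraries, against 20.4% (17.8 to 23.1) and 13.9% (12.2 to 15.7) in the control libraries. The 4 intervals of H2AC6 do not overlap between the groups, though they cover counting error alone. By the same intervals the 2 control libraries differ from each other, and 2 libraries against 2 cannot give an exact two-sided permutation p under 0.333. H2BC8 took 14% and 13.9% in arginine-free libraries, against 19.4% and 18.2% in control libraries, with intervals that overlap. H2AC8 took 38.6% and 28.4% in arginine-free libraries, against 34% and 38.4% in control libraries, so its share overlapped between groups.

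**Figure D3:**
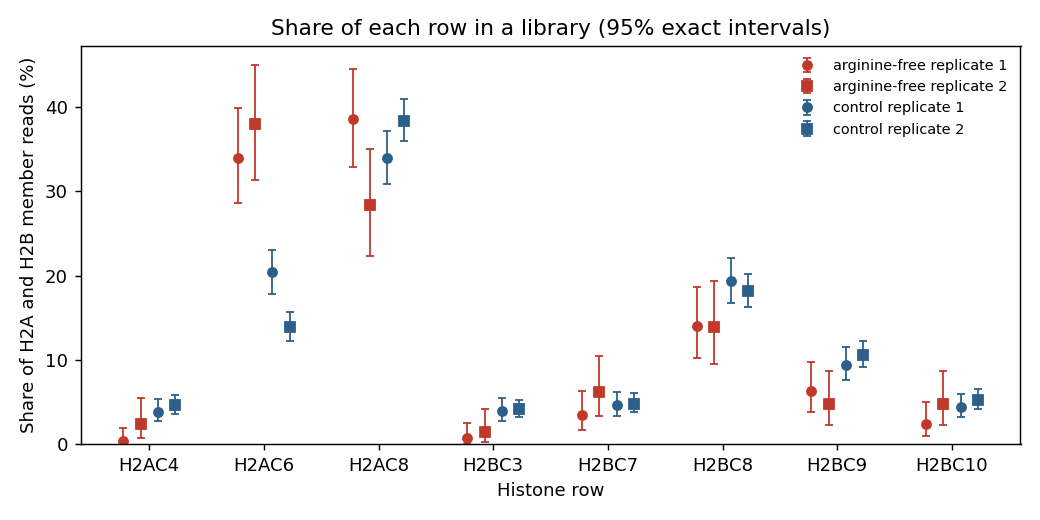
Share of each row in all reads on the group, in percent, for each library, with 95% exact binomial intervals as bars; arginine-free libraries are red and control libraries blue. H2AC6 holds 34% and 38% in arginine-free libraries and 20.4% and 13.9% in control libraries.

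Other H2A and H2B rows of the same region were lower too. H2BC5, whose row also has a distant exon from a longer transcript, held 95 and 77 reads in arginine-free cells, against 215 and 406 in control cells (log2 fold change -2.20, SE 0.22, edgeR adjusted p = 6.29e-06). H2BC6 held 12 and 8 reads in arginine-free cells, against 52 and 74 in control cells, on a row that another row covers in part (log2 fold change -3.05, SE 0.34, edgeR adjusted p = 1.41e-05). The H2BC6 row passed the filter on low counts only through its control libraries. H2AC7, which pairs head to head with H2BC7, was listed at 0, and other rows cover 435 of its 510 bases. All 13 H2A and H2B rows further along chromosome 6, beyond 27122657, were also listed at 0, and no other row covers any base of them. With the builds mixed, reads of these genes need not fall on these rows. Their 0 thus does not show that these genes had no footprints. On chromosome 1 the row at the place of H2BC21 went the other way, with 97 and 66 reads in arginine-free cells and 13 and 39 in control cells (log2 fold change 1.31, SE 0.30, edgeR adjusted p = 0.00406), but its reads need not come from that gene.

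Set beside the other histone types of the region, the summed H2A and H2B rows, 6.45-fold lower in arginine-free cells, stood between those of H3 and H1. Summed H3 rows had 234 and 314 CPM in arginine-free cells, against 6051 and 6231 CPM in control cells, 22.4-fold lower. Summed H1 rows had 3027 and 3448 CPM in arginine-free cells, against 12902 and 12462 CPM in control cells, 3.92-fold lower. Summed H4 rows had 2932 and 4033 CPM in arginine-free cells, against 6786 and 7098 CPM in control cells, 1.99-fold lower. By row, 5 of 5 tested H3 rows (H3C2, H3C3 and H3C7 had the most reads, with log2 fold changes of -5.69, -4.43 and -4.09), 4 of 4 H1 rows (H1-2, H1-4 and H1-3 at -2.09, -1.38 and -2.51) and 5 of 6 H4 rows passed as lower. Over all tested rows, 16.9% were called lower. H3C1, H3C2, H3C7, H3C8, H1-1 and H4C1 passed the filter on low counts only through their control libraries. H3C6 had 9 and 5 reads in arginine-free cells, against 6 and 8 in control cells. It did not pass that filter and was not tested, though its reads are in the H3 sum. H3C2 had a value of -4.88 when arginine-free replicate 1 was left out and -6.69 when arginine-free replicate 2 was. H4C5, with the most H4 reads, did not pass (log2 fold change 0.09, SE 0.24, edgeR adjusted p = 0.815), followed by H4C3 at -1.29 and H4C6 at -1.10. The 6 tested H4 rows ran between -3.04 and 0.09, the H1 rows between -2.83 and -1.38 and the H3 rows between -5.69 and -3.41. Each of these ranges overlaps that of the tested H2A and H2B rows of the group, -4.62 to -1.62. Differences between types were not tested.

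**Figure D4:**
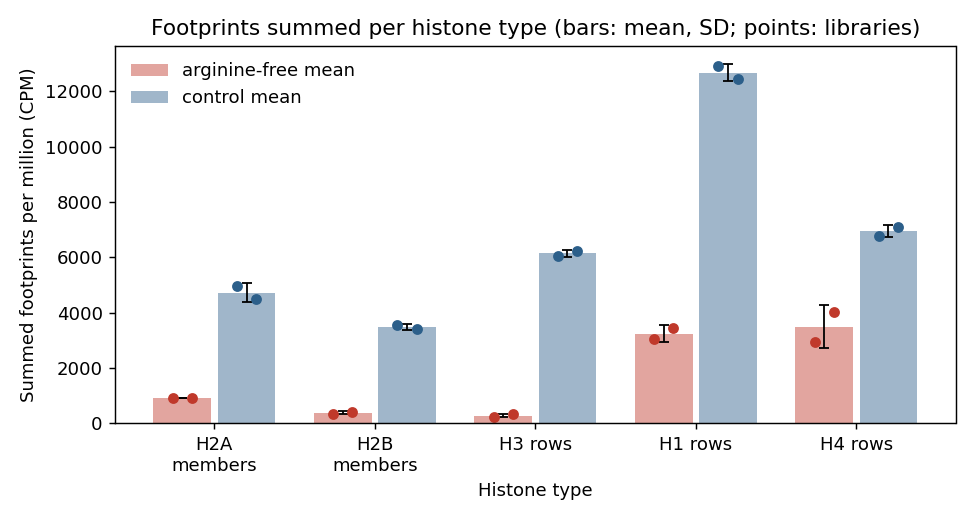
Footprints scaled to library size (CPM) summed per histone type, with bars at the mean of 2 libraries, whiskers as the SD and points as libraries; arginine-free is red and control blue. H2A stands at 901 and 898 CPM in arginine-free libraries, against 4957 and 4477 CPM in control libraries, and H2B at 333 and 408 CPM, against 3562 and 3390 CPM.

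**Figure D5:**
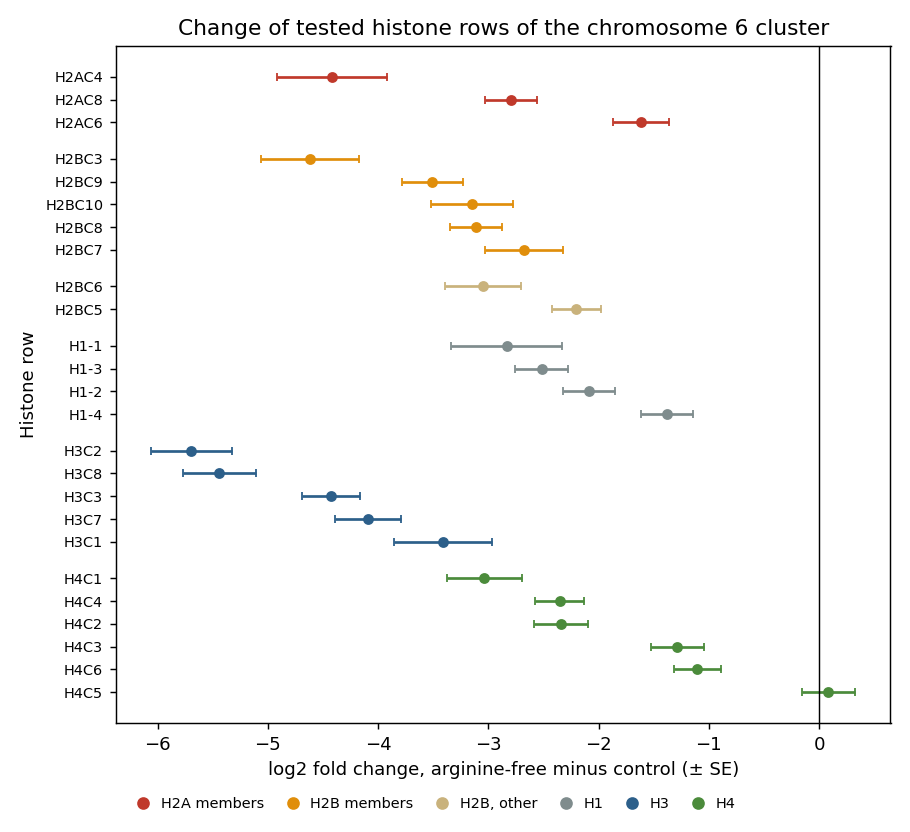
Log2 fold change, arginine-free minus control, of each tested histone row of the region, with SE bars, grouped by histone type. H2A and H2B rows lie between -4.62 (H2BC3) and -1.62 (H2AC6), H3 rows between -5.69 and -3.41, and H4C5 alone lies near 0, at 0.09.

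Genes that serve histone mRNA or DNA copying had reads at few places, and with the builds mixed these reads need not come from the gene named. Of 13 rows for histone mRNA processing factors, 8 were listed at 0 (among them SLBP, which binds the stem-loop), and of 4 tested rows 2 were lower and none higher. Among all tested rows, 16.9% were called lower and 16.0% higher, and 4 rows are too few to set against these shares. ZNF473, of the U7 processing machinery, had 18 and 22 reads in arginine-free cells, against 19 and 42 in control cells (log2 fold change -0.93, SE 0.35, edgeR adjusted p = 0.0558). NPAT, the activator of histone gene transcription, had 3 and 3 reads in arginine-free cells, against 6 and 14 in control cells (log2 fold change -2.05, SE 0.64, edgeR adjusted p = 0.0236). CASP8AP2 did not pass (log2 fold change -0.53, edgeR adjusted p = 0.593), and the other lower row was that of SYMPK (-1.98, edgeR adjusted p = 0.0282). Both lower rows, NPAT and SYMPK, passed the filter on low counts only through their control libraries. Of 26 rows of the S phase list 15 were at 0, and of 4 tested 1 was lower: TYMS, which makes thymidylate for DNA, with 77 and 47 reads in arginine-free cells, against 62 and 98 in control cells (log2 fold change -0.77, SE 0.24, edgeR adjusted p = 0.0219). POLE (0.96) and CHAF1A (-0.91) did not pass. Beside the 16.9% of all tested rows called lower, 1 of 4 is no result about the S phase list.

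Rows at the places of replication-independent histones gave no common direction over 3 tested rows. With the builds mixed, their reads need not come from the genes named. The row at the place of H2AZ2, a variant H2A made throughout the cell cycle, had 1286 and 1130 reads in arginine-free cells. It had 781 and 1426 in control cells (log2 fold change -0.21, SE 0.24, edgeR adjusted p = 0.536). The MACROH2A1 row was lower (log2 fold change -1.48, SE 0.38, adjusted p = 0.00853) and the MACROH2A2 row higher (2.33, SE 0.52, adjusted p = 0.00361) by the edgeR test. The MACROH2A2 row passed the filter on low counts only through its arginine-free libraries. Of 7 chaperones for H2A and H2B, 4 rows were listed at 0 and none was tested.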

How the data were processed

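Ribosome footprints were counted in 4 libraries of A375 cells. The deposited values are raw counts per gene row, made by the authors with featureCounts 2.0.1 on exons of GENCODE 47 without strand, per the file headers. Row length in bases came from the same deposited table. According to the submitters' processing notes, cutadapt, TopHat2 and Bowtie2 2.5.2 were used with GRCh37 and hg19; the header also shows the paired-read option for single reads. Rows were named by place against RefSeq GRCh38.p14: a row took a symbol on a mutual best overlap (over union at least 0.5 with a shared edge, otherwise 0.75) or where an exon matched the RefSeq gene exactly. This named 38616 rows. No coordinates were converted.

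The whole table was fitted with edgeR 4.0.16 (R 4.3.3): TMM factors, filterByExpr, quasi-likelihood test, Benjamini-Hochberg over 2526 rows, threshold 0.05. CPM are counts over TMM-scaled totals of tested rows. Each SE was worked back from its F statistic. Total counts ranged between 105004 and 234766. Counts were simulated for the 2526 rows with a common dispersion of 0.034 and 100 rows changed at each fold. Of these, 76% of 4-fold and 24% of 2-fold changes were recovered with 2 false calls. In the deposited data dispersion may vary by row and more rows were called, so these are not error rates of the real test. Named genes are the 9 members and, from each list, up to 3 rows with the most reads; ENSG00000291336, the H2BC21 row and the zero-count markers were named after their values were seen. The members and lists were chosen with earlier results of these data known. Alternatives were other factors, other filters, DESeq2 1.42.0, nuclear rows, a replicate block and each library left out. Tables and figures used Python 3.11.15, pandas 2.3.3 and matplotlib 3.10.9. Of the 5 rows most like the summed group, 1 is not reported here.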

Additional observations from a re-analysis of the deposited data

How the results depend on the processing

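With 2 libraries per group and as few as 1 read in a library, H2AC4 and H2BC3 have imprecise sizes: over the alternatives H2AC4 ran between -6.07 and -3.40 and H2BC3 between -5.10 and -4.04 on the log2 scale, lowest without arginine-free replicate 2 and highest without arginine-free replicate 1. H2AC6 ran between -1.90 and -1.25, and its largest edgeR adjusted p was 0.00401, without control replicate 1. Over 25 histone rows, 294 of 294 alternative values kept their direction where called and their side of the threshold. All 8 tested members stayed lower in each alternative, the replicate block (8) and DESeq2 (8) included, except that 4 were lower under a filter of 50 counts in both libraries of either medium, where 4 could be tested. Of these 4, H2BC8 and H2BC9 met that filter in control cells alone. Over all rows, that filter, which tested 580, gave 146 lower and 138 higher. DESeq2 gave 147 lower and 162 higher. Both stand against 428 and 405 in the main fit, and the cause was not tested. The block gave 372 lower and 354 higher. Same-numbered libraries did not deviate together (r = -0.0528 across 2526 rows), and no label pairs them. Leaving out 1 library gave between 243 and 389 lower and between 270 and 418 higher rows, with 243 lower without control replicate 2. The summed H2A log2 ratio was -2.48 without factors, -1.89 without H2AC8, the row with most reads, and -2.44 to -2.31 with 1 library left out. The summed H2B log2 ratio was -3.32 to -3.04 with 1 library left out.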

Other observations

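By Euclidean distance between centred log2 CPM over the 4 libraries, among 1339 tested rows with a mean count of at least 20, rows close to the summed group were those at the places of H2BC6 (0.26), LOC105371899 (0.26), PTH2 (0.27) and SEMA5A (0.29). H2BC6 is a histone row of the same region. The reads of the other rows need not come from the genes named. This likeness describes 4 libraries and has no test.

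Just before the start of H2BC3, the row ENSG00000299111 (chromosome 6, 26043817 to 26046317, minus strand) held 1 and 4 reads in arginine-free cells, against 14 and 37 in control cells (log2 fold change -3.61, SE 0.59, edgeR adjusted p = 0.000414). The span of this row also holds H3C3 on the other strand, though no exon of either overlaps the other. Its reads need not come from a transcript of its own, with the builds mixed. Whether they belong to H2BC3 or H3C3 was not tested, so the row is not counted as a separate change. The row was chosen after its values were seen, and it passed the filter on low counts only through its control libraries.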
